A study of Rattus norvegicus with 8 samples.

Results

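Calcium release from internal stores and calcium removal from the cytosol were examined through 10 genes: the inositol trisphosphate (IP3) receptors Itpr1, Itpr2 and Itpr3, the ryanodine receptors Ryr1, Ryr2 and Ryr3, the store pump Atp2a2, the plasma membrane pumps Atp2b1 and Atp2b2, and the exchanger Slc8a1. They were taken by gene name from the non-control spots of the array. Spots with 8 of the 10 names were found, 50 of the 43379 non-control spots, and all 8 genes were among the 21332 tested. No spot carried the name Ryr1 or Ryr3, and they were not analysed here.

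IP3 receptors and ryanodine receptors are the channels through which calcium leaves the endoplasmic reticulum, the former opened by IP3 and the latter by calcium itself. The SERCA pumps (Atp2a genes) return it to the store, while the PMCA pumps (Atp2b genes) and the sodium-calcium exchangers (Slc8a genes) carry it out of the cell. In neurons these proteins shape the calcium signals that follow synaptic activity, and seizures load neurons heavily with calcium.

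RNA was from the dentate gyrus of adult female Sprague-Dawley rats, all ovariectomized and all taken through status epilepticus (SE) induced by kainic acid. The 4 COS rats had received oil and the 4 CES rats estradiol, 4 doses of 2 µg, which was the question the comparison addressed. By the labels, kainic acid was given at 16 mg/kg, SE was ended after 5 h with pentobarbital, and 2 of the estradiol doses came after SE. The study's methods give another kainic acid dose, diazepam, and all estradiol before SE, and give the time of tissue collection in more than one way; the files do not settle which holds. Each of 4 arrays carried 2 rats of 1 group in opposite dyes, COS replicates 1 and 2 on the first, 3 and 4 on the second, and likewise for CES, with the odd replicates in Cy3 and the even in Cy5. An array effect and a group effect could therefore be separated only as far as a random block allows.

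A level is the log2 of the background-subtracted signal relative to the median valid spot of the same dye on the array, so that 0 is the typical valid spot. Levels of different probes are not comparable with each other. In each channel 30690 to 38553 spots were valid, that is, at least 2 times their background. Within each dye the CES rats had fewer valid spots than the COS rats. In Cy3 they had 33483 and 35352 against 37716 and 38553, and in Cy5 31826 and 30690 against 34759 and 32381. The median difference over all genes was -0.25 on this scale, whereas it was 0.04 after loess and Aquantile normalization, 0.06 after quantile normalization, 0.15 when only spots that every rat had valid set the scale and 0.12 in the deposited log2 table. For this reason the difference of each of the 8 genes is set against the median gene as well.

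The probes that the results turn on are shown first, 5′ to 3′ in the sense of the transcript, with their rn4 positions. The pair for Itpr3 is shown because the probes share 40 of their 60 bases, in capitals, and yet read differently on 1 array. Both cross an intron, as each covers 924 bases of the genome, at chr20:5355418-5356341 and chr20:5355438-5356361, forward strand. The Itpr2 probe lies on the corresponding stretch of the related channel and has, in capitals, the 45 bases that equal the second Itpr3 probe over 58 aligned positions (77.6%). It is at chr4:183680732-183713022, reverse strand.
A_44_P288187 (Itpr3): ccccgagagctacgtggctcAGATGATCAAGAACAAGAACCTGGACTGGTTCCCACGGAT
A_44_P288185 (Itpr3): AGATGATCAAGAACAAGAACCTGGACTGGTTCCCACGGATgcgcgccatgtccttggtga
A_44_P264766 (Itpr2): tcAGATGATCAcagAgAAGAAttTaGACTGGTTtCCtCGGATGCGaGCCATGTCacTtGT

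The next pair carries the receptors of Itpr1 and Ryr2. The Itpr1 probe was printed at 10 spots of the array and lies at chr4:143952594-143952653, forward strand. The Ryr2 probe is the brightest of its gene, at chr17:69509270-69509329, forward strand. Each is open in a reading frame over its whole length.
A_44_P176606 (Itpr1): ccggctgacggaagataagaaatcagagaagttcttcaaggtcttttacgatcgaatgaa
A_44_P435781 (Ryr2): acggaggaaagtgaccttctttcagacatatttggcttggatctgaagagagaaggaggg

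The 3 Atp2a2 probes are shown by their first 30 bases, because they target different stretches of the gene and 1 of them read differently from the other 2. A_44_P187083 and A_44_P187080, annotated to transcript variant 3, lie at chr12:35312813-35312872 and chr12:35313088-35313147. A_44_P282482, annotated to transcript variant 2, lies further 3′ at chr12:35315614-35315673, and all are on the forward strand.
A_44_P187083 (Atp2a2): ccagcagacattgtcagcaagttaattggc
A_44_P187080 (Atp2a2): tctgatggttctgtttacatctgtcttcac
A_44_P282482 (Atp2a2): tggggttttagctgttgagtcaaaataata

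Of the 8 genes, 3 were higher in CES by limma with Benjamini-Hochberg adjustment over all genes, against 5.8% of all genes called higher. They were Itpr1, Atp2b1 and Atp2b2, a release channel and both plasma membrane pumps. None was called lower, against 28.3% of all genes, whereas 1 of the 8, Itpr3, was lower at an unadjusted p under 0.05. After loess and Aquantile normalization 4 of the 8 were called higher, these 3 and Ryr2, against 15.6% of all genes, and none lower, against 10.4%. Before loess, none of the 8 was higher without overlap between the groups, against 1.61% of all genes. The median difference of the 8 genes was 0.34, and that of all genes was -0.25. In tissue RNA, fewer cells of a type and less RNA per cell cannot be told apart.

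**Figure D1:**
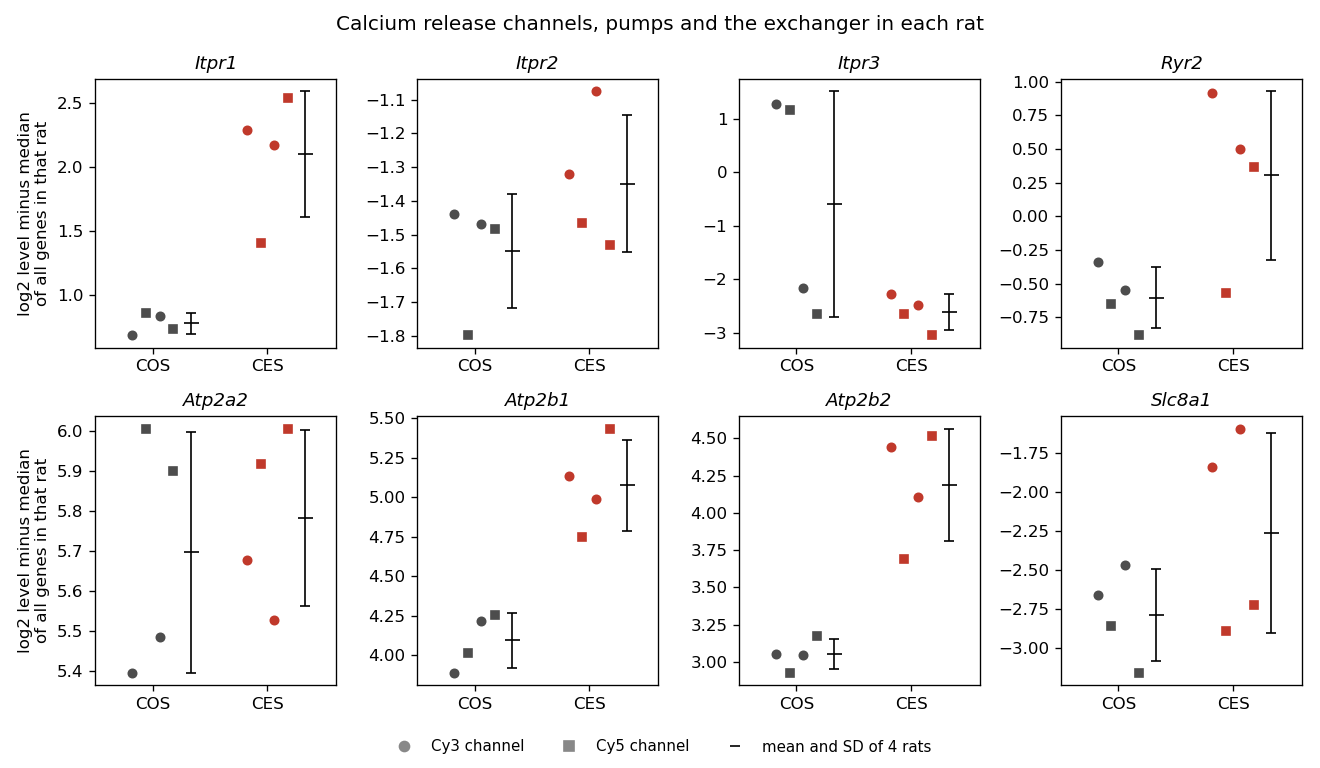
Log2 level of each gene minus the median of all genes in that rat (y axis, 1 panel a gene, each with its own scale) for the 4 COS and the 4 CES rats; circles are Cy3 and squares Cy5 channels, and bars give mean and SD. Itpr1, Atp2b1 and Atp2b2 do not overlap between the groups, and CES replicate 2 is the CES rat nearest to COS in all 3.

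Among the IP3 receptors, Itpr1, the main neuronal form, had log2 levels of 1.85, 1.73, 2.14 and 1.34 in COS replicates 1 to 4 and of 2.96, 1.94, 3.06 and 2.90 in CES replicates 1 to 4. The groups overlapped through CES replicate 2, which lay below COS replicate 3, while the other 3 CES rats were above every COS rat. The difference was 0.95 ± 0.22 (SE), 1.93-fold, with an adjusted p of 0.0118 in limma. With the median gene of each rat set to 0, the COS rats ran from 0.68 to 0.85 and the CES rats from 1.40 to 2.54, with no overlap, which was so in the higher direction for 17.3% of all genes. Both probes moved alike, by 0.86 ± 0.22 at the 10-spot probe shown above and by 1.01 ± 0.23 at a probe 77360 bases further 3′. Over the 10 spots the SD within a rat was 0.11 to 0.27, whereas that between rats was 0.50 in COS and 0.60 in CES. The SD between rats includes the difference between the dyes. At this probe the Cy3 rats read 0.87 and 1.01 in COS and 1.83 and 1.77 in CES. The Cy5 rats read 0.43 and -0.11 in COS and 0.54 and 1.47 in CES. For the gene value the Cy5 rats were on average 0.52 below the Cy3 rats.

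Itpr2, an IP3 receptor prominent in glia, did not pass the test. Its levels were -0.27, -0.92, -0.17 and -0.87 in COS and -0.65, -0.92, -0.18 and -1.17 in CES, fully interleaved. The difference was -0.17 ± 0.17 (SE, adjusted p = 0.446 in limma), or 0.08 against the median gene, and its sign depended on the scaling, as it was between 0.10 and 0.23 under the other 4 scalings named above. Its 3 probes differed by -0.31, -0.19 and 0.01.

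For Itpr3, the third IP3 receptor, the fitted difference was the largest of the 8, -2.39 ± 0.86 (SE), with an adjusted p of 0.0541 in limma, or -2.14 against the median gene. It rested on 1 probe and 1 array. At A_44_P288187 the levels were 3.39 and 2.98 in COS replicates 1 and 2, hybridized together, and -0.68 and -1.93 in the other COS rats, with -1.41, -1.89, -1.38 and -2.28 in CES. The overlapping probe A_44_P288185, printed elsewhere on the array, read -1.28, -1.53, -1.09 and -2.17 in COS and -1.82, -2.38, -1.85 and -3.27 in CES. On the latter, the first array did not stand apart from the second.

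The spots around A_44_P288187 were raised on the same array. Within 4 rows and 2 columns of it, 21 spots were below level 0 in all of the other 6 rats. Of these, 11 were above 1 in both COS replicates 1 and 2 (52.4%), as against 0.248% of the 24193 such spots of the whole array. None of the 27 such spots around the second probe was above 1 in both. Raised patches of this kind covered 894 non-control spots (2.06%) on the first array and 22, 31 and 70 on the others. With the spots in them left out, an alternative chosen after the data were seen, Itpr3 was lower in CES by 0.81 ± 0.23 (adjusted p = 0.0233 in limma), against 28.9% of all genes called lower, or -0.56 once the median difference was subtracted. At the remaining probe, the scanner software counted 2 COS rats and 1 CES rat as well above background, so this value stands close to the detection limit. With both rats of the first array left out instead, also chosen after the data were seen, Itpr3 was not called (-0.54 ± 0.26, adjusted p = 0.181 in limma).

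**Figure D2:**
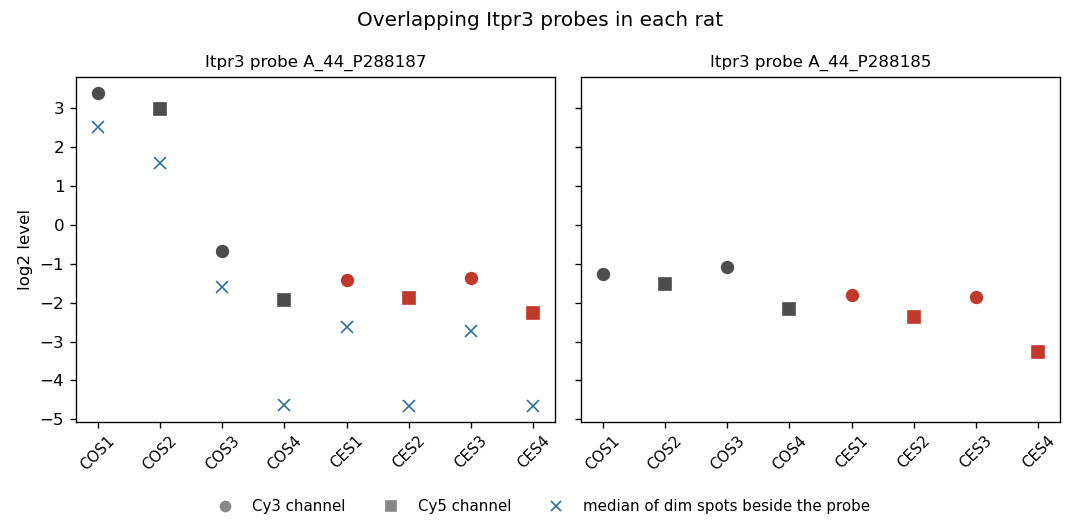
Log2 level (y axis) of the overlapping Itpr3 probes in each rat (x axis), grey for COS and red for CES, with the median of the 21 dim spots around the first probe as crosses (the lowest crosses, near -4.65, are at the floor for spots without signal). COS replicates 1 and 2 are high at the first probe, together with the spots around it, and not at the second.

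Ryr2, the cardiac-type ryanodine receptor and the single one measured, missed the threshold. Its levels were 0.83, 0.23, 0.76 and -0.27 in COS and 1.59, -0.02, 1.39 and 0.73 in CES. In CES, replicates 2 and 4 lay within the COS range and replicates 1 and 3 above it. The Cy5 rats, which include CES replicates 2 and 4, were on average 0.98 below the Cy3 rats. The difference between the groups was 0.54 ± 0.21 (SE, adjusted p = 0.0741 in limma), or 0.79 against the median gene. It was called higher in 7 of 26 alternative settings, including all 4 of the other scalings and the fit without CES replicate 2 (adjusted p = 0.0108 in limma). In order from the 5′ to the 3′ end, its 5 valid probes differed by -0.22, 0.23, 0.65, 0.58 and 0.60, of which the most 5′ was well above background in 2 rats of each group. The most 3′ of them passed the test over all probes (adjusted p = 0.0326 in limma), against 5.48% of probes called higher.

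Of the pumps, Atp2b1, a widely expressed PMCA, read 5.06, 4.90, 5.52 and 4.87 in COS and 5.81, 5.29, 5.88 and 5.80 in CES. CES replicate 2 fell below COS replicate 3, and the others were above all COS rats. The difference was 0.61 ± 0.18 (SE), 1.53-fold, with an adjusted p of 0.0276 in limma. Against the median gene it ranged from 3.89 to 4.26 in COS and from 4.75 to 5.44 in CES, without overlap. Of its probes, A_44_P245665 passed the test (0.71 ± 0.17, adjusted p = 0.0135 in limma) and A_43_P12761 did not (0.41 ± 0.22, adjusted p = 0.170). Its call was the least stable of the 3 and was lost in 10 of 26 alternatives.

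Atp2b2, the PMCA enriched in neurons, read 4.22, 3.81, 4.35 and 3.78 in COS and 5.11, 4.23, 5.00 and 4.88 in CES. The groups again overlapped through CES replicate 2, which lay below COS replicate 3. The difference was 0.76 ± 0.18 (SE), 1.70-fold, with an adjusted p of 0.0113 in limma, and against the median gene the ranges were 2.93 to 3.17 and 3.69 to 4.52. Its probes differed by 0.87 ± 0.18 and 0.27 ± 0.17, of which only the former passed the test. The latter, A_44_P535337, is 1 spot, which the scanner software marked as an outlier in CES replicates 3 and 4. With marked spots left out, the difference of the gene was 0.87 ± 0.18 (adjusted p = 0.0073 in limma).

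Atp2a2, the SERCA pump of heart and brain, read 6.56, 6.88, 6.79 and 6.51 in COS and 6.35, 6.46, 6.42 and 6.37 in CES, every CES rat below every COS rat, as in 19.8% of all genes. The difference of -0.29 ± 0.16 (SE) did not pass the test (adjusted p = 0.188 in limma). It was -0.03 against the median gene, on which scale the groups overlapped, and between 0.06 and 0.11 under the other 4 scalings. The gene value is a mean over 12 spots, 10 of them of A_44_P187080, and the probes were not alike. The scanner software marked 3 of these 10 spots as outliers, in CES rats and in no COS rat. With marked spots left out, the difference of the gene was -0.22 ± 0.16 (adjusted p = 0.319 in limma). The single probes and their ratios were not refitted without the marked spots. A_44_P282482 read 5.67, 5.94, 5.85 and 5.47 in COS and 6.55, 6.11, 6.23 and 6.25 in CES, higher without overlap by 0.55 ± 0.17 (adjusted p = 0.0341 in limma over all probes), or 0.82 against the median of all probes. A_44_P187080 (-0.34 ± 0.16, adjusted p = 0.124) and A_44_P187083 (-0.27 ± 0.19, adjusted p = 0.297) did not pass in limma, and stood at -0.07 and -0.0032 against that median.

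In the ratio of 2 probes within a rat, any constant factor of the channel cancels. Corrections that depend on intensity, such as loess and quantile normalization, do not cancel, and the ratios were not computed under them. The log2 ratio of A_44_P187080 to A_44_P282482 was 1.04, 1.09, 1.09 and 1.20 in COS and -0.14, 0.46, 0.29 and 0.22 in CES. The COS rats lay close together and all above the CES rats. The ratio differed by -0.90 ± 0.19 (SE, adjusted p = 0.0816 in limma over 5484 pairs of probes of 1 gene), and that of A_44_P187083 to A_44_P282482 by -0.83 ± 0.22 (adjusted p = 0.10). Of the Atp2b2 probes, A_44_P535337 is 1 spot, marked as an outlier in CES replicates 3 and 4. For Atp2b2, the ratio of A_44_P139697 to A_44_P535337 was 2.06, 1.73, 2.19 and 1.98 in COS and 2.50, 2.43, 2.73 and 2.66 in CES, a difference of 0.59 ± 0.14 (adjusted p = 0.0861). These 3 of the 21 pairs did not overlap between the groups, against 20.4% of all pairs, so that such a split was not rare on the array. No pair on the array passed an adjusted p of 0.05 in limma, and 1281 of them, 4 of the 21 among them, were under 0.05 unadjusted.

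**Figure D3:**
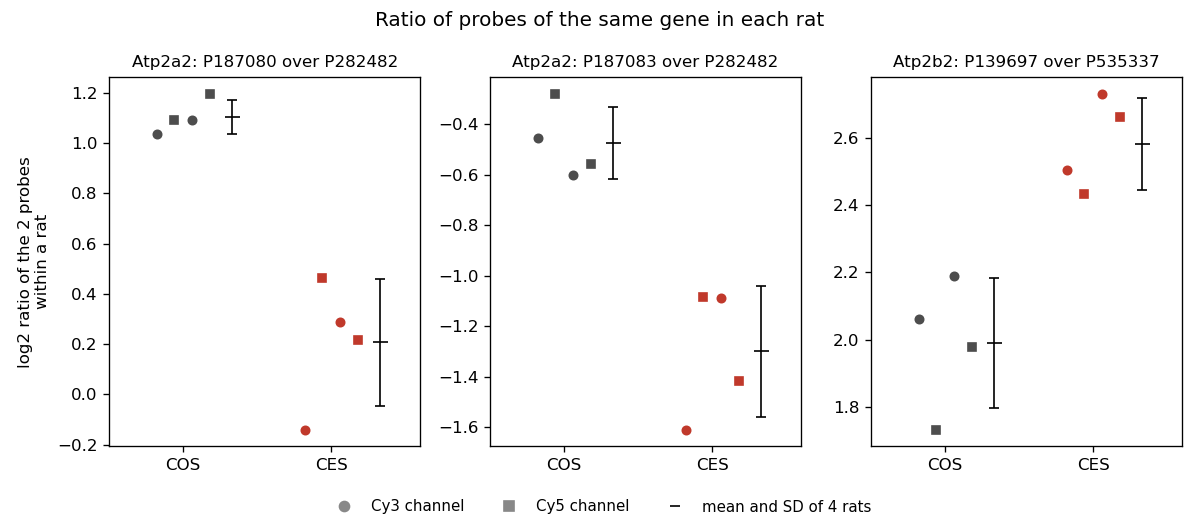
Log2 ratio of 2 probes of 1 gene within each rat (y axis, 1 panel a pair) for the 4 COS and the 4 CES rats; circles are Cy3 and squares Cy5 channels, and bars give mean and SD. The groups do not overlap in any of the 3 panels, and the COS ratios of the first Atp2a2 pair lie between 1.04 and 1.20.

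Along the genes, the difference was larger at the most 3′ probe than at the most 5′ probe in 6 of the 7 genes with probes more than 60 bases apart, a pattern noticed after the values were seen. The gap was 0.83 for Atp2a2, 0.82 for Ryr2, 0.59 for Atp2b2, 0.29 for Atp2b1, 0.16 for Itpr1 and 0.13 for Slc8a1, and it was -0.32 for Itpr2. Over the 3327 genes with such probes on the array, 57.2% had the larger difference at the 3′ probe, with a median gap of 0.07. The median log2 ratio of 3′ to 5′ probe over these genes, a measure that moves with RNA integrity, was 1.42 and 1.39 in the Cy3 COS rats, 1.46 and 1.43 in the Cy3 CES rats, 1.57 and 1.63 in the Cy5 COS rats and 1.66 in both Cy5 CES rats. Within each dye it was thus slightly higher in CES, and its part in the results was not tested.

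**Figure D4:**
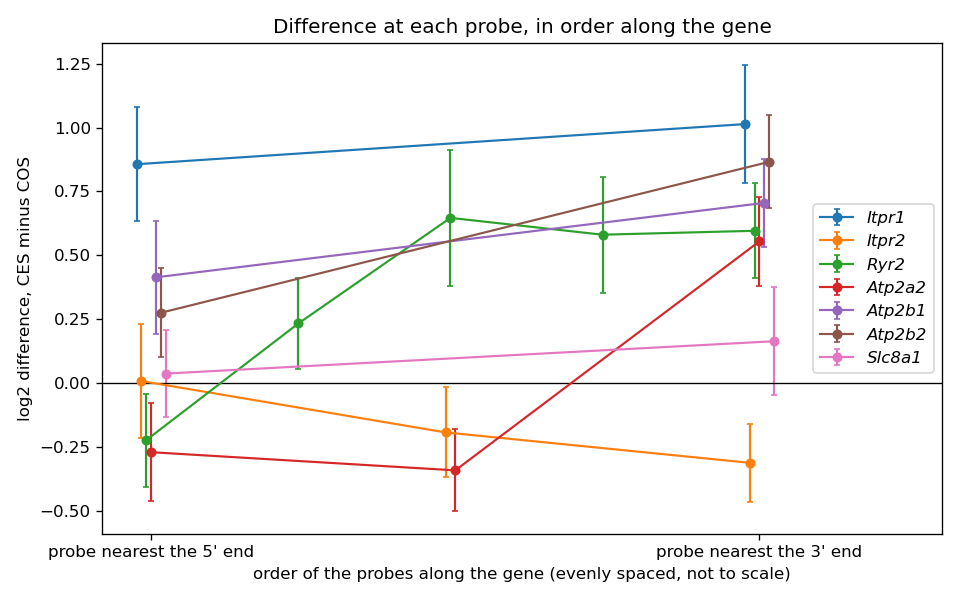
Log2 difference between CES and COS (y axis, bars give SE) at each valid probe of 7 genes, ordered along the gene from the 5′ to the 3′ end (x axis, evenly spaced). The line rises from the first to the last probe for 6 of the 7 genes and falls for Itpr2.

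Slc8a1, the sodium-calcium exchanger that removes calcium after large loads, did not pass the test. It read -1.50, -1.98, -1.16 and -2.55 in COS and -1.17, -2.35, -0.70 and -2.36 in CES. The values followed the dye more than the group, as the Cy5 rats were on average 1.18 below the Cy3 rats. The difference was 0.15 ± 0.21 (SE, adjusted p = 0.594 in limma), or 0.41 against the median gene. It depended on the processing, being 0.42 when the signal processed by the scanner software was used, 0.50 after quantile normalization, 0.55 when scaled over commonly valid spots and 0.53 in the deposited table, and it was called in none of 25 alternatives. The scanner software put its signal well above background in 2 rats of COS and 3 of CES.

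**Figure D5:**
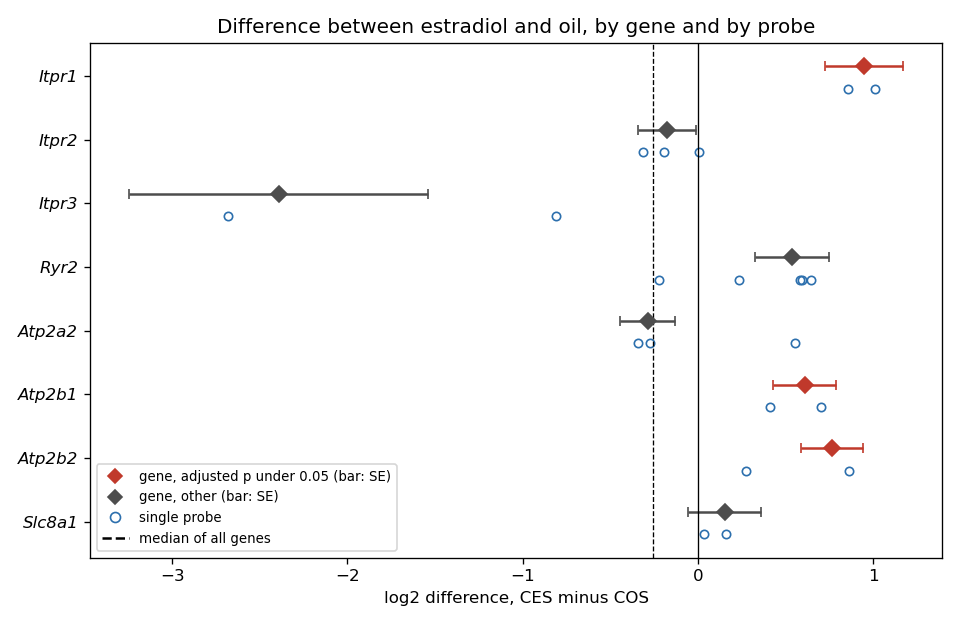
Log2 difference between CES and COS (x axis) for each gene (y axis), with SE, and for each of its valid probes; the dashed line is the median of all genes, -0.25. Itpr1, Atp2b1 and Atp2b2 lie to the right of 0 at every probe, whereas the Atp2a2 probes lie on both sides.

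Of the close relatives of these genes, Atp2b3, another neuronal PMCA, was higher in CES by 0.98 ± 0.25 (adjusted p = 0.0161 in limma), or 1.23 against the median gene. Slc8a2, the brain exchanger, was also called higher (adjusted p = 0.0229 in limma). Atp2b3 was called in 18 of 26 alternatives and Slc8a2 in 15 of 24. For Slc8a2 no COS rat and 2 CES rats had signal well above background, and no size of the difference is given. Atp2a1 (0.15 ± 0.24), Atp2a3 (0.40 ± 0.20) and Slc8a3 (-0.45 ± 0.19) did not pass, and Atp2b4 had no signal valid in all rats. Slc8a3 was also dim, well above background in 1 COS rat and 2 CES rats. These relatives are counted again in the wider list that follows.

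The wider list of calcium-handling genes held 81 names, of which 71 were on the array and 68 were tested. There, 9 were called higher and 10 lower, against the 5.8% and 28.3% of all genes, and the median difference was 0.07 against -0.25. The split depended on the scaling, being 20 higher and 5 lower after loess and Aquantile normalization, against 15.6% and 10.4%. By role, store-operated entry had 1 higher and 2 lower of 10, store buffers and SERCA regulators 1 and 2 of 13, channel partners 2 and 1 of 17, IP3 and cADPR metabolism 1 and 3 of 8, mitochondrial uptake 0 and 1 of 8, lysosomal channels 1 and 1 of 3, other exchangers 2 and 0 of 5 and other pumps 1 and 0 of 4.

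Of the genes called in this list, 3 were higher in every CES rat than in any COS rat, against 1.61% of all genes higher without overlap. Itpka, the neuronal kinase that phosphorylates IP3, rose by 1.39 ± 0.26 (adjusted p = 0.0056), Slc24a2, a potassium-dependent sodium-calcium exchanger, by 1.39 ± 0.19 (adjusted p = 0.00375), and Sln, encoding the SERCA inhibitor sarcolipin, by 1.22 ± 0.18 (adjusted p = 0.0039), all in limma. The largest falls without overlap, found in 19.8% of all genes, were those of Ccdc109b, the dominant-negative partner of the mitochondrial uniporter, by 2.72 ± 0.41 (adjusted p = 0.0039), and Itpkc, another IP3 kinase, by 1.87 ± 0.30 (adjusted p = 0.00419). Orai1, the pore of store-operated calcium entry, fell by 1.31 ± 0.22 (adjusted p = 0.00459), Inpp5a, which dephosphorylates IP3, by 1.09 ± 0.24 (adjusted p = 0.00902), and Bst1, an ADP-ribosyl cyclase, by 1.08 ± 0.22 (adjusted p = 0.00703). Of the IP3 kinases, Itpka and Itpkc thus changed in opposite directions, and the third one measured, Itpkb (0.04 ± 0.18, adjusted p = 0.880), did not pass the test. These values are not set against the median gene, whose difference was -0.25.

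Markers of cell types also differed between the groups, in numbers that depended on the scaling, and the counts are to be read against the 5.8% of all genes called higher and the 28.3% called lower (15.6% and 10.4% after loess and Aquantile normalization). Of the microglia and macrophage markers, 5 of 8 were called lower and none higher, and their summed level against the median gene of the rat was 6.49 to 7.02 in COS and 5.27 to 6.62 in CES. Smooth muscle and pericyte markers were lower in 4 of 5 and higher in 1, with sums of 4.58 to 5.52 against 2.90 to 4.41, and endothelial markers lower in 4 of 5, with 4.53 to 4.90 against 3.78 to 4.91. Of the neuronal markers, 2 of 6 were called higher and 1 lower, with sums of 7.36 to 8.07 against 8.0 to 8.61. CES replicate 2, the CES rat nearest to COS for Itpr1, Atp2b1 and Atp2b2, had the highest microglial (6.62), endothelial (4.91) and pericyte (4.41) sums of the CES rats. The part of these shifts in the calcium genes was not tested. After loess and Aquantile normalization, 2 microglial, 1 endothelial and 3 pericyte markers were called lower, and 5 neuronal markers higher and 1 lower. Of the 7 astrocyte markers 2 were called higher and 1 lower (2 and 0 after loess and Aquantile), and of the 6 oligodendrocyte markers none was called in limma in either, with 0 at an unadjusted p under 0.05. Of the granule cell markers, 1 of 5 was called higher and 3 lower, or 1 and 0 after loess and Aquantile normalization, and Prox1 and Tdo2 were not well above background in any rat. Choroid plexus sums ranged widely in both groups, from 3.13 to 8.38 in COS and from 3.11 to 7.22 in CES.

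The calls did not hold under every setting. With normexp background correction, or with the methods' t-test after Benjamini-Hochberg adjustment over all genes, none of the 8 was called higher. In each, 3 of the 8 were higher at an unadjusted p under 0.05. Of all 21332 genes, 125 were called higher with normexp and 0 with the t-test. No call among the 8 genes was left without COS replicate 3 or without CES replicate 1. There the adjusted p values in limma of Itpr1, Atp2b1 and Atp2b2 were all above 0.05. Of all genes, 257 and 525 were called higher in these fits, against 1238 with all rats. Without CES replicate 2, 4 of the 8 were called higher, against 3 with all rats, and 1855 of all genes, against 1238. Without COS replicates 1 and 2 together, an alternative chosen after the data were seen, none of the 8 was called. Of all genes, 407 were then called higher. The differences of Itpr1, Atp2b1 and Atp2b2 were still positive.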

How the data were processed

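The scanner files, as deposited, hold the intensity and the local background of each spot in each channel, extracted by Agilent Feature Extraction 10.7.3.1 per the submitters' notes. The authors also deposited a log2 table, whose columns are the log2 signal minus background relative to the channel's median, and it was used as an alternative. Probe positions are those of the files (rn4).

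Following the study's methods, a spot was valid at a foreground of at least 2 times background. Its mean signal minus background median was divided by the median valid spot of the same dye on the array and averaged over the spots of a gene name valid in all 8 rats (27642 spots). The study's methods go on to an iterative renormalization across dyes and conditions, and this step was left out here. Spots marked as outliers by the scanner software were kept, and leaving them out was an alternative. CES was compared with COS in limma 3.58.1 (R 4.3.3) with a term for the dye and a random block for the array (duplicateCorrelation, statmod 1.5.0). Tests were two-sided, p-values were adjusted by Benjamini-Hochberg and called under 0.05. The array correlation was -0.0064. The fit was also run on simulated data with known changes. That simulation held no array effect and no shift of all genes between the groups, so it tests neither. The number of rats limits the precision, which is given by the SE of each difference.

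Genes were named by a rule: all 10 genes of the set, of the wider list up to 5 rises and 5 falls called without overlap, and the closest relatives. The genes and lists were chosen with earlier results of these data known. The methods' t-test, other background corrections, normalizations, filters and fits, and leaving out each rat were tried as alternatives. The t-test was the study's, for unequal variances, but was adjusted here by Benjamini-Hochberg over all genes. The study instead corrected for redundant spots of a gene and added a fold-change cut-off for each gene, and neither was applied here. By the labels, which name no litter or day, same-numbered rats of both groups share the dye. Their deviations from the group means correlated by 0.21 to 0.34 and, with the dye means removed, by -0.06 to -0.04.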

Additional observations from a re-analysis of the deposited data

Results flagged for a closer look

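In 42 groups of 4 rats examined for 1 rat far from the other 3, 3 stood out, where chance gives about 5% of groups. All 3 were the same rat, CES replicate 2, as the lowest of its group. It read 1.94 for Itpr1 against 2.90 to 3.06 in the other 3, 5.29 for Atp2b1 against 5.80 to 5.88, and 3.53 for Atp2b3 against 4.48 to 4.53.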

How the results depend on the processing

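Itpr1 and Atp2b2 were higher in CES in all 26 alternatives and called in 21 of them each, and Atp2b1 was higher in all 26 and called in 16. No gene of the set was called higher with normexp background correction, with the methods' t-test adjusted over all genes or without COS replicates 1 and 2 together. Leaving out 1 rat gave 0 to 4 of the set called higher and 0 to 1 called lower. Of all genes, it gave 257 to 1855 higher and 914 to 7012 lower. With the replicate number as a block, 1 gene, Itpr3, was called lower and the same 3 higher; with the raised patches left out, likewise 1 was called lower. As far as the labels tell, the numbers pair rats only by dye, so this block is not known to be a pairing of animals. Of the wider list, 9 were called higher and 10 lower; the numbers were 2 and 2 with normexp, 20 and 5 after loess and Aquantile, 20 and 5 after quantile, 20 and 3 when scaled over spots valid in all rats, 20 and 4 in the deposited table, 4 higher with no filter on valid spots, 0 and 0 with the methods' t-test, and 3 and 3 without COS replicates 1 and 2 together. Leaving out 1 rat gave 3 to 12 higher and 3 to 12 lower. Of all genes, 1238 were called higher and 6038 lower, out of 21332 tested. These numbers were 125 and 461 with normexp, 3323 and 2225 after loess and Aquantile, and 3055 and 2221 after quantile. They were 3348 and 1718 when scaled over spots valid in all rats, and 3275 and 1927 of 21008 genes in the deposited table. With no filter they were 529 and 3540 of 35199 genes. With the methods' t-test they were 0 and 0 after adjustment over all genes, while 6103 genes were under 0.05 unadjusted. Without COS replicates 1 and 2 together they were 407 and 1813. The sign turned for Itpr2 after loess and Aquantile (0.10), quantile (0.19), scaling over spots valid in all rats (0.23) and in the deposited table (0.20), for Atp2a2 in the same settings (0.066, 0.055, 0.11 and 0.078), for Slc8a1 with normexp (-0.0144) and for Atp2a1 without COS replicate 4 (-0.10, within -0.10 to 0.35 when 1 rat was left out). The dim probes of Itpr3 and Slc8a1 limit what their signal over background can show. The cause of these changes was not tested.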
